A study of Mus musculus with 48 samples.

Results

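The replicative helicase of mouse cells is a ring of the proteins Mcm2, Mcm3, Mcm4, Mcm5, Mcm6 and Mcm7, and Mcm10 helps to switch the ring on. The expression of these 7 genes was followed over the day in epidermal stem cells (EpSCs), the keratinocyte stem cells that renew the epidermis. Each gene was read from the probe set that carries its symbol alone and has the highest mean over all arrays, which gave 7 of the 12823 genes tested. All 7 lay above the limit for dim genes, a mean log2 signal of 3.96. The cells came from wild-type female C57B6/J mice, 24 young mice of 8 weeks and 24 aged mice of 102 to 116 weeks. At each age 4 mice were taken at each of 6 times, every 4 h from ZT0 to ZT20. ZT counts hours from lights on by convention; the light schedule itself is not given in the labels. Each of the 48 arrays held the RNA of 1 mouse, and the series asked how the daily expression of these cells changes with age. No treatment, transgene or Cre was named for any group.

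In G1 the origin recognition complex, Cdc6 and Cdt1 load the Mcm ring onto DNA as an inactive double ring, a step called licensing. At the onset of S phase the kinases Cdc7 and Cdk2, with Mcm10, Cdc45 and the GINS complex, turn it into the active helicase that unwinds DNA ahead of the polymerases. Transcription of the Mcm genes is known to rise towards S phase under E2F factors, and Mcm proteins are widely used as markers of cells that are in cycle. In mouse epidermis the share of stem cells in S phase is known to vary with the time of day.

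Promoter sequence is shown because E2F sites in front of Mcm genes are a textbook feature of this family and because the ring genes shared a trough and a peak time. RefSeq windows of 300 bases (250 before the transcription start and 50 after it, build GRCm38.p6) were given for 6 of the 7 genes, with 2 windows for Mcm7. Both strands were searched for the E2F consensus in its 4 spellings, TTTCCCGC, TTTCGCGC, TTTGCCGC and TTTGGCGC. A match was found for 4 of the 6 genes, Mcm3, Mcm5, Mcm6 and Mcm7, in 4 of their 7 windows, while 2.26% of all 32851 windows of this length held one. The stretches with these matches are given on the strand of the gene, with the matches in capitals.
Mcm6, chr1:128359725-128359835, minus strand, -130 to -20 from the start: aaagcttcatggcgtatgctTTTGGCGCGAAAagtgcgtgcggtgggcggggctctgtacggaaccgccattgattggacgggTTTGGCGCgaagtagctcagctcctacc
Mcm5, chr8:75109336-75109387, plus strand, -173 to -122 from the start: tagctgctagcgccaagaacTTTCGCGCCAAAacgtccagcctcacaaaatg
Mcm7, chr5:138172021-138172068, minus strand, -185 to -138 from the start: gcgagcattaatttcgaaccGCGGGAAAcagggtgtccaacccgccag
Mcm3, chr1:20820267-20820293, minus strand, 20 to 46 from the start: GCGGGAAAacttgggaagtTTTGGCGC
In Mcm6 and in Mcm5 a run of 12 capitals holds 2 overlapping matches, 1 on each strand, and Mcm6 has a further match nearer to the start. Mcm7 has a match also at bases 17 to 24 after the start, TTTCGCGC. The windows of Mcm2 and Mcm10 do not hold these letters. The E-box CACGTG, the site of the clock factors, was in none of the members' windows and in 7.15% of all windows. The CHR element TTTGAA, known from genes of mitosis, was in the window of Mcm2 and in 17.9% of all windows. A match is a run of letters and does not show that a factor binds there.

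The values are log2 signals of single probe sets, so differences are read within a gene and not between genes. The medians of the 48 arrays lay between 4.78 and 5.04, and pairs of arrays correlated with a median r of 0.989 and a lowest r of 0.963. Markers of basal keratinocytes were bright (Krt5 had a mean log2 signal of 12.7 and Krt14 of 12.4), whereas 4 of 7 fibroblast, 3 of 6 endothelial and 5 of 7 myeloid markers were below the dim limit. Of the hair follicle bulge markers, Sox9 (9.58) and Nfatc1 (9.41) were bright, while Cd34 (3.31) and Lgr5 (3.72) were below that limit. Suprabasal keratins were bright too, with Krt10 at 11.7. In RNA of a cell population, fewer cells that express a gene and less RNA of it per cell cannot be told apart.

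**Figure D1:**
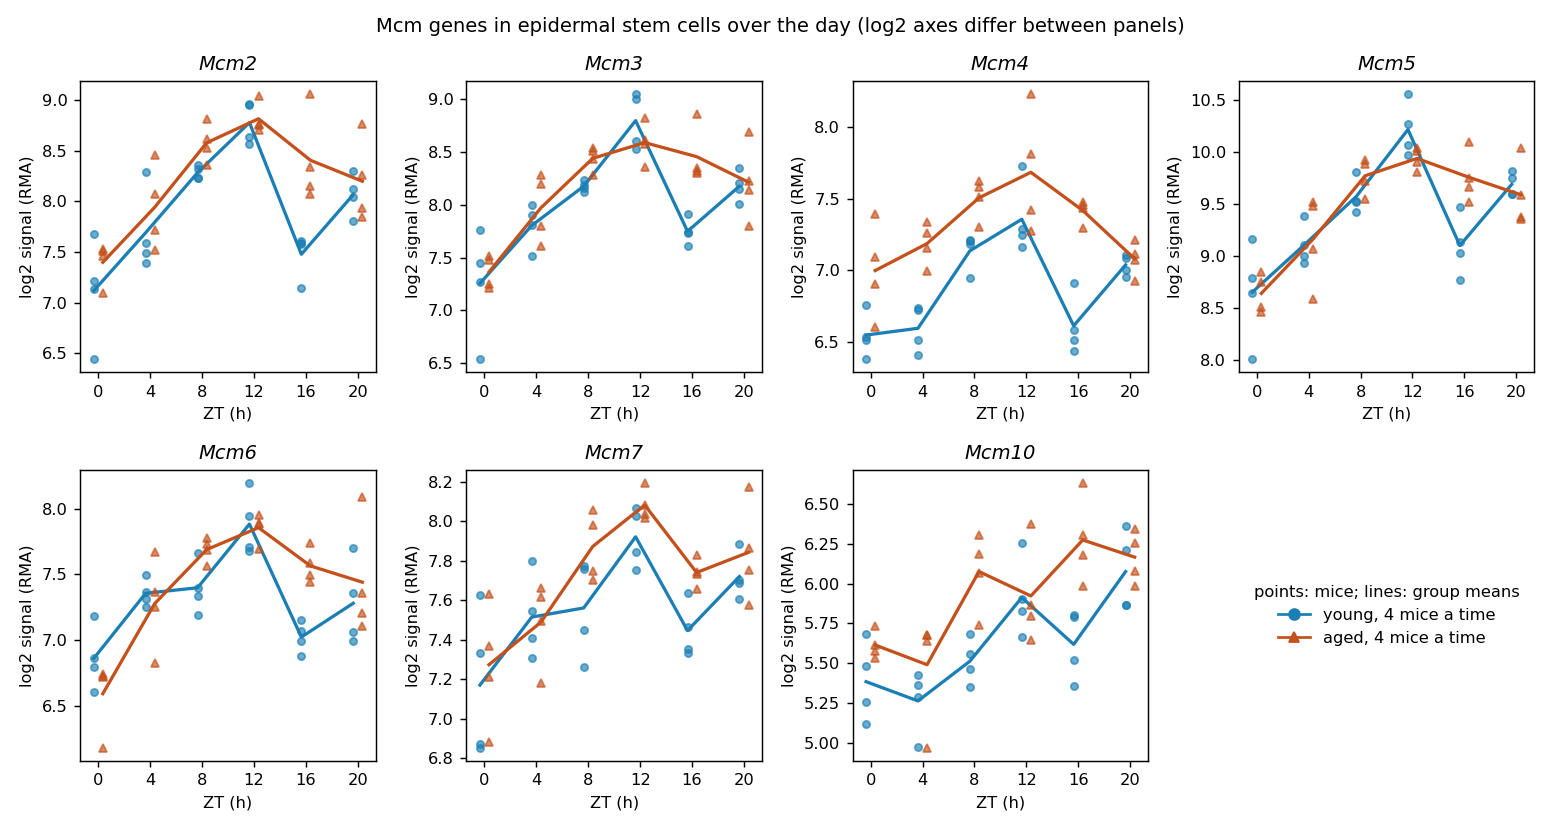
Each panel plots 1 gene, with the time of day (ZT, hours) on the horizontal axis and the log2 RMA signal on the vertical axis, as points for single mice (4 per age and time) and lines through the group means. In young mice the means are higher at ZT12 and ZT20 than at ZT16 between them, and in aged mice the means at ZT16 lie above the young ones for all 7 genes.

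Mcm2, whose protein forms a side of the gate through which DNA enters the ring, showed the widest daily range in young mice. Its log2 signals were 7.13, 6.44, 7.68 and 7.22 in the 4 young mice at ZT0, 8.95, 8.97, 8.64 and 8.57 at ZT12, 7.58, 7.14, 7.61 and 7.59 at ZT16 and 8.30, 8.12, 8.04 and 7.81 at ZT20. The mice at ZT12 thus lay above all others of their age, and those at ZT16 fell back into the range of ZT0. The means ran from 7.12 ± 0.51 (SD, n = 4) at ZT0 over 7.69 ± 0.41 at ZT4 and 8.28 ± 0.07 at ZT8 to 8.78 ± 0.21 at ZT12, which is 3.17-fold above ZT0. In aged mice the signals were 7.51, 7.53, 7.09 and 7.46 at ZT0, 8.71, 9.04, 8.75 and 8.77 at ZT12, 8.15, 8.07, 8.34 and 9.06 at ZT16 and 7.84, 7.93, 8.26 and 8.76 at ZT20. At ZT16, 1 aged mouse exceeded every aged mouse at ZT12 and the others lay below that group, but all 4 were above every aged mouse at ZT0. The aged means were 7.40 ± 0.21, 7.94 ± 0.42, 8.58 ± 0.19, 8.82 ± 0.15, 8.41 ± 0.45 and 8.20 ± 0.42 from ZT0 to ZT20.

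Mcm3 and Mcm5, neighbouring subunits of the ring, followed the same course. Mcm3 read 9.05, 9.01, 8.53 and 8.61 in young mice at ZT12 and 7.91, 7.74, 7.74 and 7.61 at ZT16, with no overlap. In aged mice it read 8.61, 8.36, 8.82 and 8.57 at ZT12 and 8.32, 8.35, 8.30 and 8.86 at ZT16, and these groups overlapped. Its young means were 7.26 ± 0.52, 7.81 ± 0.21, 8.18 ± 0.05, 8.80 ± 0.27, 7.75 ± 0.12 and 8.18 ± 0.14 from ZT0 to ZT20, and its aged means 7.36 ± 0.15, 7.97 ± 0.32, 8.44 ± 0.11, 8.59 ± 0.19, 8.46 ± 0.27 and 8.22 ± 0.37. The young mice at ZT0 were the most spread, with 1 mouse at 6.54 and another at 7.76. Mcm5 read 10.56, 10.27, 10.07 and 9.98 at ZT12 and 9.47, 8.77, 9.03 and 9.13 at ZT16 in young mice, again without overlap. In aged mice it read 10.01, 9.81, 10.04 and 9.90 at ZT12 and 9.53, 9.66, 9.75 and 10.10 at ZT16, and 1 mouse at ZT16 was above all at ZT12. From ZT0 to ZT20 the Mcm5 means were 8.65 ± 0.48, 9.11 ± 0.20, 9.57 ± 0.16, 10.22 ± 0.26, 9.10 ± 0.29 and 9.69 ± 0.11 in young mice, and 8.64 ± 0.19, 9.16 ± 0.44, 9.77 ± 0.17, 9.94 ± 0.11, 9.76 ± 0.24 and 9.59 ± 0.31 in aged mice.

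Mcm4, a substrate of Cdc7 within the ring, had higher means in aged than in young mice at each time. Its values in young mice were 6.52, 6.74, 6.41 and 6.72 at ZT4 and 6.59, 6.51, 6.91 and 6.44 at ZT16, against 7.16, 7.34, 6.99 and 7.26 and 7.46, 7.30, 7.43 and 7.48 in aged mice. The ages did not overlap at either time. They overlapped at ZT20, where young mice had 7.04 ± 0.07 and aged mice 7.08 ± 0.12. The other young means were 6.55 ± 0.16 at ZT0, 6.60 ± 0.16 at ZT4, 7.14 ± 0.13 at ZT8, 7.36 ± 0.25 at ZT12 and 6.61 ± 0.21 at ZT16, and the aged means from ZT4 to ZT16 were 7.19 ± 0.15, 7.51 ± 0.14, 7.68 ± 0.43 and 7.42 ± 0.08. At ZT0 the aged mice read 7.09, 7.39, 6.90 and 6.61. The most spread of them, aged ZT12, held 1 mouse at 8.23 and another at 7.28.

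Mcm6, the subunit that Cdt1 binds, read 7.07, 7.15, 6.99 and 6.88 in young mice at ZT16 and 7.49, 7.44, 7.58 and 7.74 in aged mice. Its means from ZT0 to ZT20 were 6.86 ± 0.24, 7.36 ± 0.11, 7.40 ± 0.20, 7.88 ± 0.24, 7.02 ± 0.12 and 7.28 ± 0.32 in young mice, and 6.59 ± 0.27, 7.28 ± 0.35, 7.69 ± 0.09, 7.85 ± 0.11, 7.56 ± 0.13 and 7.44 ± 0.44 in aged mice. Mcm7, the subunit tagged with ubiquitin when the helicase is unloaded, had the narrowest range of the ring genes in young mice. Its young means were 7.17 ± 0.38, 7.51 ± 0.21, 7.56 ± 0.25, 7.92 ± 0.15, 7.45 ± 0.14 and 7.72 ± 0.12, and its aged means 7.27 ± 0.31, 7.49 ± 0.22, 7.87 ± 0.17, 8.08 ± 0.08, 7.74 ± 0.07 and 7.84 ± 0.25. Even so its values at ZT16, 7.64, 7.46, 7.35 and 7.33 in young and 7.66, 7.73, 7.74 and 7.83 in aged mice, did not overlap.

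Mcm10, which is no part of the ring, ran later in the day. Its young means were 5.38 ± 0.25, 5.26 ± 0.20, 5.51 ± 0.14, 5.91 ± 0.25, 5.62 ± 0.22 and 6.07 ± 0.25, lowest at ZT4 and highest at ZT20. Its aged means were 5.61 ± 0.08, 5.49 ± 0.35, 6.08 ± 0.24, 5.92 ± 0.32, 6.27 ± 0.27 and 6.17 ± 0.16, lowest at ZT4 and highest at ZT16. At ZT16 it read 5.52, 5.36, 5.81 and 5.79 in young mice and 6.30, 5.98, 6.18 and 6.63 in aged mice.

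The 6 ring genes were lowest at ZT0 and highest at ZT12 at both ages. From the lowest to the highest mean, young mice spanned from 1.68-fold (Mcm7) to 3.17-fold (Mcm2), and aged mice from 1.61-fold (Mcm4) to 2.68-fold (Mcm2). Between these ends the order of the means was not the same at both ages, and this order was not tested. In young mice ZT16 was the second lowest time for Mcm2, Mcm3, Mcm5, Mcm6 and Mcm7, and in aged mice ZT4 was the second lowest time for Mcm2, Mcm3, Mcm5, Mcm6 and Mcm7. ZT4 and ZT16 are not adjacent, so no step compares them. Their young means were close for Mcm5 (9.11 and 9.10) and Mcm3 (7.81 and 7.75) and further apart for Mcm6 (7.36 and 7.02). The test of the course as a whole, given below, was passed by no member. The mice at ZT12 did not overlap with those at ZT0 in 6 of 7 genes in young and 5 of 7 in aged mice, against 3.12% and 2.78% of all genes. These times were picked as the lowest and highest of the ring genes. That choice favours the members over other genes, so the counts are only a description. Neighbours in the order that did not pass the test of a step between adjacent times are given with the steps.

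A cosine with a period of 24 h was fitted to each age with limma, and p-values were adjusted over all 12823 genes by the Benjamini-Hochberg method with a threshold of 0.05. In young mice 6 of the 7 genes were rhythmic, where 6.27% of all genes were, and in aged mice 6 of 7, where 1.36% of all genes were. Both sets share 5 genes: Mcm7 missed the threshold in young mice (adjusted p = 0.146) and Mcm10 in aged mice (adjusted p = 0.0524). The amplitude, from the daily mean to the peak, had a median over the members of 0.33 (log2) in young and 0.51 in aged mice, against 0.09 and 0.08 over all genes tested. In young mice it was largest for Mcm2 (0.57 ± 0.12, SE of the fit, adjusted p = 0.00400), followed by Mcm3 (0.51 ± 0.10, adjusted p = 0.00268) and Mcm5 (0.50 ± 0.11, adjusted p = 0.00719). Mcm6 (0.33), Mcm10 (0.30), Mcm4 (0.29) and Mcm7 (0.21) had smaller amplitudes. In aged mice the order was Mcm2 (0.61), Mcm5 (0.58), Mcm3 (0.53), Mcm6 (0.51), Mcm4 (0.34), Mcm10 (0.33) and Mcm7 (0.32), with the lowest adjusted p of 0.00128 for Mcm6. The young count fell to 3 when the young ZT0 mouse 4 or any of the young ZT12 mice 1, 3 or 4 was left out, and also to 3 without the 4 arrays of lowest weight. The aged count fell to 3 with the mean levels of 5 cell type marker lists (suprabasal, fibroblast, endothelial, myeloid and bulge) as covariates.

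The ring genes peaked around the usual time of lights off. Fitted peaks in young mice ran from ZT10.46 ± 1.0 h (SE) for Mcm6 to ZT12.47 ± 1.3 h for Mcm7, and in aged mice from ZT11.37 ± 0.83 h for Mcm4 to ZT12.79 ± 0.72 h for Mcm5. The cosine fitted to Mcm10 peaked at ZT16.13 ± 1.0 h in young mice and at ZT15.28 ± 0.93 h in aged mice. The young crest is not the highest time, as the young mean at ZT16 (5.62) lay below those at ZT12 (5.91) and ZT20 (6.07). The rhythms were not shown to differ between the ages: no member and no other gene passed the test of the difference (0% of genes, adjusted p of the members 0.781 to 0.989), with 0 members and 982 genes at an unadjusted p under 0.05. The amplitude of Mcm2 was 0.05 higher in aged mice (95% interval -0.29 to 0.38) and that of Mcm6 0.18 higher (-0.07 to 0.43), so the intervals allow both a loss and a gain with age. Peaks in aged mice were from 0.85 h earlier (Mcm10, -0.85 ± 1.4 h) to 1.62 h later (Mcm6, 1.62 ± 1.2 h).

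**Figure D2:**
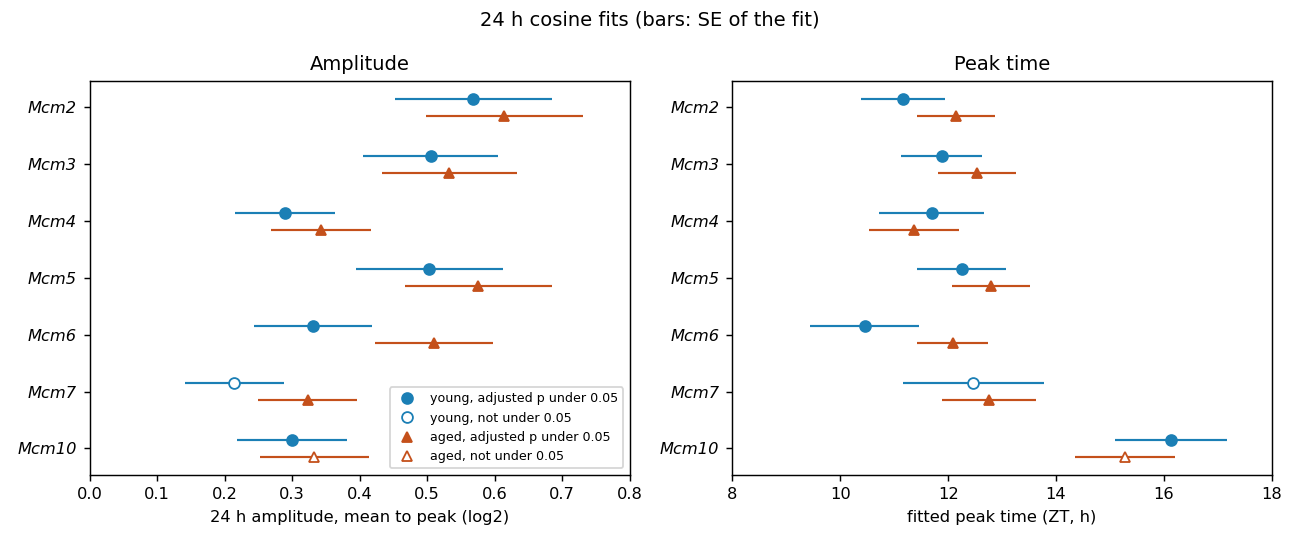
The left panel plots the fitted 24 h amplitude (log2, from mean to peak) and the right panel the fitted peak time (ZT, hours) of each gene in young and aged mice, with bars for the SE of the fit and filled symbols where the adjusted p was under 0.05. Amplitudes run from 0.21 to 0.57 in young and from 0.32 to 0.61 in aged mice. The fitted peaks of Mcm10 (ZT16.13 and ZT15.28) are later than those of the ring genes, although its highest young mean was at ZT20.

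A cosine cannot hold a course with a low between highs, as the young means had at ZT16 between ZT12 and ZT20. Time was therefore also tested as a factor with 6 levels. All 7 genes varied over the day in young mice (adjusted p from 7.08e-07 for Mcm5 to 0.00560 for Mcm7), as did 17.5% of all genes, and all 7 in aged mice (2.37e-05 for Mcm6 to 0.00476 for Mcm4), as did 8.36%. Leaving out any single mouse kept both counts at 7. The course as a whole was not shown to differ between the ages for any member (adjusted p 0.203 for Mcm4 to 0.872 for Mcm7, limma), where 2.59% of genes passed. An unadjusted p under 0.05 was found for 5 members, all but Mcm2 and Mcm7, and for 1968 of the 12823 genes. With array weights, which give noisy arrays less say, 4 members passed this test.

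A component with a period of 12 h can describe a second rise, such as that of the young means at ZT20. The component was tested because an earlier fit of these data had shown a young course that is no single cosine. It passed in young mice for Mcm4 alone (amplitude 0.29 ± 0.06 SE, adjusted p = 0.0113), where 4.3% of genes passed. An unadjusted p under 0.05 (limma) was found for 4 members and for 2189 genes. The 12 h amplitude of Mcm2 in young mice was 0.34 ± 0.11 and that of Mcm5 0.31 ± 0.10, with adjusted p of 0.119 and 0.133. In aged mice no member passed (5.78% of genes did), and the 12 h amplitude of Mcm4 was 0.03 ± 0.06. There 1 member, Mcm10, and 2551 genes had an unadjusted p under 0.05 (limma). The young count rose to 3 without the young ZT0 mouse 2 and to 2 without the young ZT4 mouse 1.

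Between ZT12 and ZT16, the first hours of the dark phase by convention, 5 of the 7 genes fell in young mice, where 2.3% of all genes fell. Mcm2 fell by 1.30 ± 0.21 (log2, SE; 2.47-fold, adjusted p = 1.54e-04) and Mcm5 by 1.12 ± 0.18 (2.17-fold, adjusted p = 1.60e-04). Mcm3 fell by 1.05 ± 0.18 (2.07-fold), Mcm6 by 0.86 ± 0.17 (1.81-fold) and Mcm4 by 0.74 ± 0.15 (1.67-fold), with adjusted p of 2.03e-04, 0.00114 and 0.00133. Mcm7 (-0.48, adjusted p = 0.0666) and Mcm10 (-0.29, adjusted p = 0.370) did not pass. The 2 groups of 4 young mice did not overlap in 6 of the 7 genes, Mcm10 being the exception, whereas 6.28% of all genes were separated in this way. No single mouse left out took the count of 5 below 5.

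In aged mice no member passed the same step, where 1.75% of all genes did (2 members and 1798 genes had an unadjusted p under 0.05, limma). Their changes ran from -0.41 ± 0.21 for Mcm2 to 0.35 ± 0.16 for Mcm10, and those of Mcm3 (-0.13 ± 0.18) and Mcm5 (-0.18 ± 0.18) were within 1 SE of 0. The step of aged minus the step of young mice was tested directly, a test added after the courses had been seen. It was 0.94 ± 0.26 for Mcm5 (95% interval 0.41 to 1.46, adjusted p = 0.271), 0.92 ± 0.25 for Mcm3 (0.41 to 1.42, adjusted p = 0.271) and 0.89 ± 0.30 for Mcm2 (adjusted p = 0.443). None of the 7 passed over all genes, where 1 gene did (0.0078%). An unadjusted p under 0.05 (limma) was reached by 6 members, all with the higher value in aged mice. Over all genes 852 reached it, 399 of them in that direction. With array weights 4 members passed (Mcm2, Mcm3, Mcm4 and Mcm5), and without the 4 arrays of lowest weight 2 (Mcm3 and Mcm5).

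Markers of some other cells also took different values in these groups, which were not tested. The mean of the suprabasal keratinocyte list (8 genes, 1 of them, Flg, below the dim limit) was highest of all groups in young mice at ZT12 (8.85) and lowest in young mice at ZT16 (8.60), against 8.70 and 8.68 in aged mice. The mean of 5 measured T cell markers was lowest in young mice at ZT16 (5.13) and was 5.53 in aged mice at ZT16; of these Cd3e, Cd3g and Cd2 were dim (4.21 to 4.36), Cd3d had 4.82 and Thy1 was bright (9.42). The mean of the upper follicle and sebaceous gland list was 10.04 and 9.73 at these times in young mice, and 10.15 and 9.99 in aged mice. With the 5 marker lists as covariates, the count of members that fell between ZT12 and ZT16 in young mice was 5. In these lists 4 of 7 fibroblast, 3 of 6 endothelial and 5 of 7 myeloid markers were below the dim limit. T cell and upper follicle markers were not among the covariates. The part of T cells and of upper follicle cells in these steps was not tested.

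At the other steps fewer members passed, apart from the one across the end of the dark phase. From ZT20 to ZT0, 4 genes fell in young mice (0.296% of all genes fell): Mcm5 by 1.04 ± 0.18, Mcm2 by 0.95 ± 0.21, Mcm3 by 0.92 ± 0.18 and Mcm10 by 0.69 ± 0.16, with adjusted p from 0.00162 (Mcm5) to 0.0317 (Mcm10). In aged mice 5 fell (0.944% of all genes fell): Mcm5 by 0.95 ± 0.18, Mcm3 by 0.85 ± 0.18, Mcm6 by 0.85 ± 0.17, Mcm2 by 0.80 ± 0.21 and Mcm7 by 0.57 ± 0.15, with adjusted p from 0.00283 (Mcm5) to 0.0351 (Mcm2). The young count was 2 without the young ZT20 mouse 1 or 2 or without the 4 arrays of lowest weight, and the aged count 3 with array weights or without the aged ZT0 mouse 1 or 3 or the aged ZT20 mouse 3 or 4. Mcm2, Mcm3 and Mcm5 thus fell at both ages, and Mcm3 and Mcm5 did so whichever single mouse was left out.

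Rises between neighbouring times were passed by few members. In young mice Mcm4 rose from ZT4 to ZT8 by 0.54 ± 0.15 (adjusted p = 0.0163; 1.89% of all genes rose) and Mcm5 from ZT16 to ZT20 by 0.59 ± 0.18 (adjusted p = 0.0468; 3.47% rose). The call of Mcm4 was lost without the young ZT4 mouse 1 or 3 or the young ZT8 mouse 1. That of Mcm5 was kept in 29 of 48 fits that each left out 1 mouse, with adjusted p up to 0.167. In aged mice Mcm6 rose from ZT0 to ZT4 by 0.69 ± 0.17 (adjusted p = 0.0220; 1.07% rose) and Mcm10 from ZT4 to ZT8 by 0.58 ± 0.16 (adjusted p = 0.0351; 2% rose). The call of Mcm6 was lost without the aged ZT0 mouse 3 or the aged ZT4 mouse 2, and that of Mcm10 without the aged ZT4 mouse 1 or the aged ZT8 mouse 1, 2 or 4. More members rose at these steps with an unadjusted p under 0.05 (limma). In young mice they were 4 from ZT4 to ZT8 (793 genes) and 5 from ZT16 to ZT20 (1382 genes). In aged mice they were 4 from ZT0 to ZT4 (1054 genes) and all 7 from ZT4 to ZT8 (1079 genes). No member passed from ZT0 to ZT4 in young mice (2.83% of genes did), although 5 passed without the young ZT0 mouse 3. At this step 5 members and 2118 genes had an unadjusted p under 0.05 (limma). None passed from ZT8 to ZT12 in young mice (0.0546% of genes did, with 6 members and 929 genes unadjusted) or aged mice (0.0858%, with 0 members and 1218 genes unadjusted). None passed from ZT16 to ZT20 in aged mice (0.0312%, with 1 member and 649 genes unadjusted). The rise from ZT16 to ZT20 of young mice stood beside aged changes from -0.34 (Mcm4) to 0.10 (Mcm7), none of which passed. The difference of this step between the ages was largest for Mcm2 (-0.80 ± 0.30), with the lowest adjusted p for Mcm4 (-0.76 ± 0.21, adjusted p = 0.106). No member passed, where 0.203% of genes did, and 5 members and 1240 genes had an unadjusted p under 0.05 (limma).

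**Figure D3:**
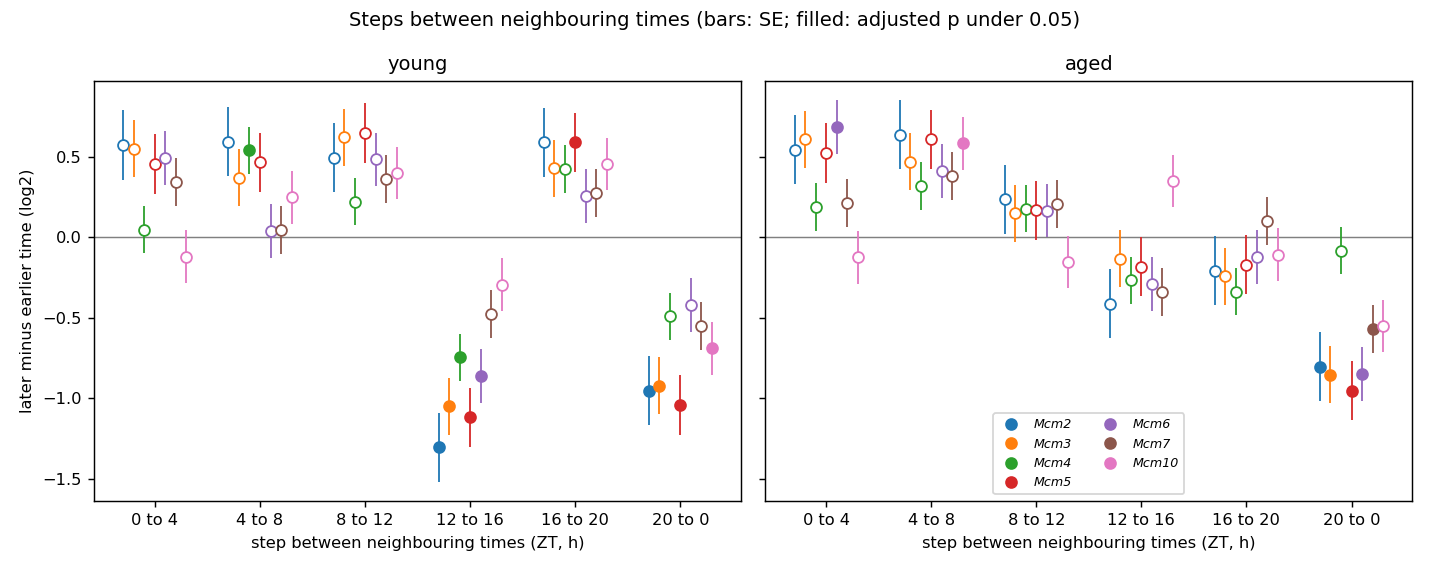
Each point is the change of 1 gene from a time to the next (log2, later minus earlier, limma) in young mice (left) and aged mice (right), with bars for the SE and filled symbols where the adjusted p was under 0.05. The fall from ZT12 to ZT16 reaches -1.30 (Mcm2) in young mice and -0.41 (Mcm2) in aged mice, and the fall from ZT20 to ZT0 is seen at both ages.

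The ages were then compared at each time. At ZT16, 5 of the 7 genes were higher in aged mice, where 1.83% of all genes were. Mcm2 was 1.91-fold higher (0.93 ± 0.21 log2, SE; adjusted p = 0.00922), Mcm4 1.75-fold (0.80 ± 0.15, adjusted p = 7.53e-04), Mcm3 1.63-fold (0.71 ± 0.18, adjusted p = 0.0166), Mcm5 1.58-fold (0.66 ± 0.18, adjusted p = 0.0359) and Mcm10 1.57-fold (0.65 ± 0.16, adjusted p = 0.0166). Mcm6 (0.54 ± 0.17, adjusted p = 0.0625) and Mcm7 (0.29 ± 0.15, adjusted p = 0.345) did not pass. In all 7 genes the lowest aged mouse was above the highest young mouse, a separation that 6.24% of all genes showed. The number of genes called depended on single mice: it was 1 (Mcm4) without the aged ZT16 mouse 4, 2 without the young ZT16 mouse 2 and 3 without the young ZT16 mouse 4. With the 5 marker lists as covariates it was 2, Mcm2 and Mcm4. This comparison and the young step from ZT12 to ZT16 share the young ZT16 mice.

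At ZT4 Mcm4 alone was higher in aged mice (0.59 ± 0.15, 1.51-fold, adjusted p = 0.00692), where 3.84% of genes were higher. No member passed at ZT0, ZT8, ZT12 or ZT20, where 5.19%, 2.14%, 1.31% and 1.36% of genes did. At these times 1, 3, 1 and 0 members had an unadjusted p under 0.05 (limma), as did 2329, 1607, 1732 and 1478 genes. At ZT12, the time of the peak, the differences lay between -0.28 (Mcm5) and 0.33 (Mcm4), and at ZT20 between -0.10 (Mcm5) and 0.16 (Mcm6). The median of the members was 0.66 at ZT16 and at most 0.30 at any other time, against medians of all genes between -0.02 and 0.03.

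**Figure D4:**
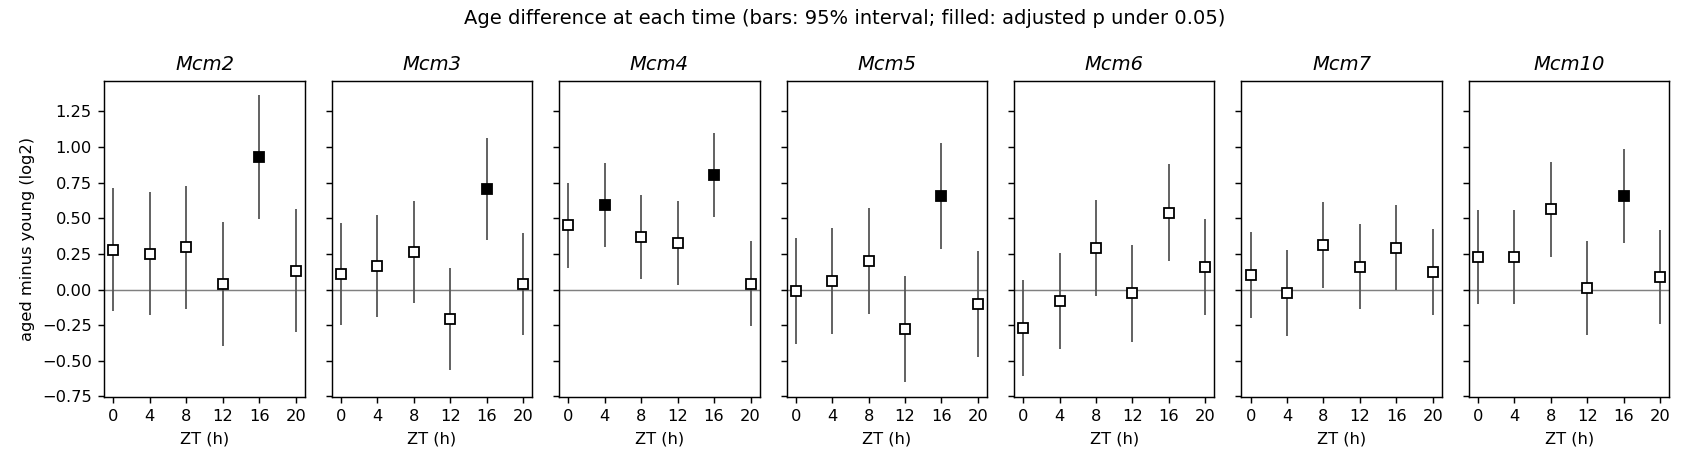
For each gene the difference of aged minus young mice (log2) is plotted at each time (ZT, hours), with bars for the 95% interval and filled symbols where the adjusted p was under 0.05. The difference at ZT16 is positive for all 7 genes, from 0.29 (Mcm7) to 0.93 (Mcm2).

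Averaged over the day, 3 of the 7 genes were higher in aged mice, where 9.89% of all genes were. Mcm4 had 6.88 ± 0.35 (SD, n = 24) in young and 7.31 ± 0.33 in aged mice, a difference of 0.43 ± 0.07 (SE; 1.35-fold, adjusted p = 2.38e-05). Mcm10 differed by 0.30 ± 0.08 (adjusted p = 0.00713) and Mcm2 by 0.32 ± 0.12 (adjusted p = 0.0459). The remaining differences were 0.18 (Mcm3), 0.16 (Mcm7), 0.10 (Mcm6) and 0.09 (Mcm5), with adjusted p from 0.122 (Mcm7) to 0.636 (Mcm5). Mcm4 passed in each of the 48 fits that left out 1 mouse, and Mcm2 in 26 of them (adjusted p up to 0.0781). The call of Mcm2 was also lost under 5 of 10 other alternatives, among them marker covariates (adjusted p = 0.0562) and median centring (adjusted p = 0.0762), with adjusted p from 0.0260 to 0.0802. The other probe sets of Mcm10 differed by 0.03 and 0.12 (adjusted p = 0.830 and 0.124). A second probe set of Mcm2 differed by 0.24 (adjusted p = 0.192). Markers of some other cells were higher in aged mice as well. The mean of 5 T cell markers was 5.31 in young and 5.55 in aged mice (3 of 5 higher by the test). That of 6 upper follicle and sebaceous gland markers was 9.81 and 10.09 (2 of 6 higher). Cd2 (4.38 and 4.32) and Lrig1 (9.69 and 9.56) of these lists had lower means in aged mice. In the suprabasal and bulge lists 1 gene each was lower and none higher. Of the 8 basal keratinocyte markers 2 were higher and 1 was lower. No tested fibroblast, endothelial, myeloid or melanocyte marker passed. The part of T cells and of upper follicle cells in the level differences was not tested.

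Some of the genes were read by further probe sets, and Mcm4 and Mcm6 were not. That of Mcm2 had amplitudes of 0.54 in young and 0.65 in aged mice with peaks at ZT11.15 and ZT12.23, and that of Mcm3 amplitudes of 0.47 and 0.53 with peaks at ZT11.77 and ZT11.81; all 4 fits passed. That of Mcm7 had amplitudes of 0.26 and 0.31 and did not pass (adjusted p = 0.148 and 0.163). The brighter extra probe set of Mcm10 passed in young mice (amplitude 0.31, peak ZT15.50, adjusted p = 0.0101) and not in aged mice (0.25, adjusted p = 0.135). The dimmer one passed at neither age (0.17 and 0.23, adjusted p = 0.131 and 0.0577). With time as a factor (limma), those of Mcm2 and Mcm3 passed at both ages. That of Mcm7 passed in young mice (adjusted p = 0.0416) and not in aged mice (0.0634). The brighter one of Mcm10 did not pass in aged mice (0.110), nor the dimmer one in young mice (0.163), but each passed at the other age. An extra probe set of Mcm5 was below the dim limit (mean log2 signal 3.46) and passed neither the cosine nor the factor test at either age.

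The genes also varied together between mice of the same group. After the group means had been taken off, the 15 pairs of ring genes correlated over the 48 mice with Pearson's r from 0.16 (Mcm3 and Mcm4) to 0.88 (Mcm3 and Mcm5) and a median of 0.68, and with Spearman's rho from 0.25 to 0.85. Of these 15, 12 passed for r and 13 for rho after adjustment over all 21 pairs of members, in a two-sided permutation test of 100000 shuffles of mice within groups. For Mcm3 and Mcm5 the permutation p was 1e-05 for both r and rho, the smallest these shuffles can give (adjusted 3.5e-05 and 5.25e-05), and r was 0.84 without the 2 mice farthest from the median of Mcm3. Within young mice that r was 0.85 and within aged mice 0.91. Pairs of Mcm4 with the other ring genes were weaker, from 0.16 to 0.40 (permutation adjusted p from 0.00405 for Mcm6 to 0.266 for Mcm3). Mcm10 correlated with the ring genes by r from 0.27 (Mcm7) to 0.54 (Mcm5), and 4 of its 6 pairs passed for r. All pairs share the arrays, so any feature of an array that acts on many bright probe sets enters each of them.

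Among the 12 group means each gene was set against the average of the other 6. Pearson's r over these 12 points, which share the 48 arrays, was 0.98 for Mcm2 and Mcm3, 0.96 for Mcm5, 0.95 for Mcm7, 0.91 for Mcm6, 0.83 for Mcm4 and 0.68 for Mcm10. The genes most like the average of the 7 were Wdhd1 (r = 0.96), which tethers polymerase alpha to the helicase, Slfn9 (0.96), Lig1 (0.95), the ligase that joins Okazaki fragments, Timeless (0.95), of the fork protection complex, and Ung (0.94), which removes uracil from DNA. Within the 6 young means these r were 0.94 to 0.97 and within the 6 aged means 0.94 to 0.98. They were picked for this likeness, so the values are a description.

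The genes that act with the helicase were counted in lists, to be read against the shares of all genes: 6.27% in young and 1.36% in aged mice for the 24 h cosine, and 17.5% and 8.36% with time as a factor. The cosine and the factor gave different orders of the ages for some lists, so both counts are given. No gene of any list passed the limma test of a difference between the ages in rhythm or in course; over all genes 982 and 1968 had an unadjusted p under 0.05 in these tests. Of the licensing list (10 of 11 genes tested) 2 were rhythmic in young mice, Cdt1 (amplitude 0.30, peak ZT13.27) and Mcmbp (0.20, ZT15.16), and 3 in aged mice, Cdt1 (0.46, ZT13.18), Cdc6 (0.49, ZT13.65) and Gmnn (0.42, ZT13.58), the inhibitor of Cdt1. With time as a factor 4 passed in young and 3 in aged mice. The median amplitude of that list was 0.14 in young and 0.13 in aged mice, where all genes had 0.09 and 0.08. Of 11 tested partners and firing factors, 2 were rhythmic in young mice, Gins2 (0.50, ZT10.48) and Cdc7 (0.51, ZT16.81), and 4 in aged mice, with Cdc45 and Topbp1 besides. With time as a factor 5 passed at each age. Gins1 fell from ZT12 to ZT16 in young mice by 1.31 ± 0.24 (adjusted p = 7.08e-04), Gins2 by 1.17 ± 0.20 (adjusted p = 1.86e-04) and Cdc45 by 0.53 ± 0.12 (adjusted p = 0.00741), the 3 of 11 in this list that passed. Gins1 and Gins2 are subunits of the GINS complex, which travels with the ring. At ZT16 Gins1 was 1.88-fold higher in aged mice (adjusted p = 0.0251), the only gene of this list to pass there.

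Of 25 tested fork components behind the helicase, 7 were rhythmic in young and 13 in aged mice, with median amplitudes of 0.17 and 0.31. With time as a factor 17 passed in young and 14 in aged mice. From ZT12 to ZT16, 11 of the 25 fell in young mice and none rose (median -0.50, against -0.02 over all genes). Among them were Rfc3 of the clamp loader (-0.67 ± 0.14, adjusted p = 0.00206), Pola2 of polymerase alpha (-0.54 ± 0.11, adjusted p = 0.00264) and Chaf1b of the chromatin assembly factor (-0.68 ± 0.14, adjusted p = 0.00311). In aged mice none fell and 1 rose at this step, Clspn (0.52 ± 0.14, adjusted p = 0.0480). At ZT16, 7 of the 25 were higher in aged mice and none lower, led by Pola2 (1.40-fold, adjusted p = 0.0103), Pole (1.52-fold, adjusted p = 0.0139) and Tipin (1.90-fold, adjusted p = 0.0154). Of 15 tested E2F, pocket protein and G1 cyclin genes, 1 was rhythmic in young mice (E2f1, amplitude 0.23, peak ZT13.41, adjusted p = 0.0210) and 5 in aged mice, E2f1 again (0.41, ZT13.48, adjusted p = 2.92e-05), Cdk2, Ccnd1, E2f8 and Ccne2. The young count is near the share of all genes, and with time as a factor 7 passed at each age. In young mice Ccnd1 (-0.64), Cdk4 (-0.60) and Cdk2 (-0.40) fell from ZT12 to ZT16, and Ccnd1 and Rbl1 were higher in aged mice at ZT16 (1.33-fold and 1.55-fold).

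Mcm8 and Mcm9, family members that act in repair, did not pass the 24 h cosine at either age (adjusted p = 0.758 and 0.204 in young mice, 0.366 and 0.608 in aged mice). With time as a factor Mcm9 varied over the day in young mice (adjusted p = 0.0204) and Mcm8 did not pass (adjusted p = 0.489). The G2 and mitosis list differed in time: 17 of its 20 tested genes were rhythmic in young mice, with Nusap1 (amplitude 0.78) peaking at ZT23.01 and Kif11 (0.71) at ZT21.31, and 1, Nusap1, in aged mice. With time as a factor 16 passed in young and 4 in aged mice, and the difference between the ages was passed by none of the 20. None of the 20 fell from ZT12 to ZT16 in young mice (median -0.02), and 11 rose from ZT16 to ZT20 (median 0.84). At ZT16 none was higher in aged mice by the test, although their median difference was 0.43. Mki67, a marker of cycling cells, had 8.08 ± 0.39 at ZT12, 8.15 ± 0.22 at ZT16 and 8.78 ± 0.15 at ZT20 in young mice (SD, n = 4), so that its means at ZT12 and ZT16 differed by less than their SDs. In aged mice Mki67 had 8.05 ± 0.21, 8.60 ± 0.15 and 8.56 ± 0.14 at these times. Its aged mean at ZT16 was thus above the young one, a difference that did not pass.

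**Figure D5:**
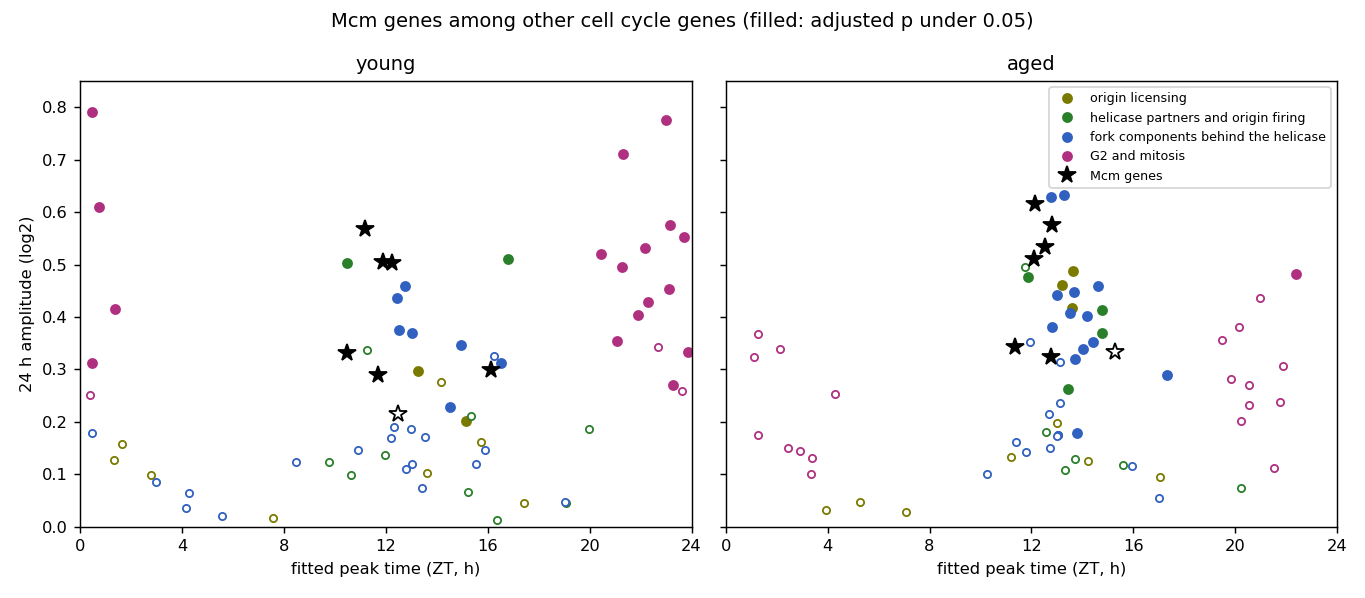
Fitted 24 h amplitude (log2) against fitted peak time (ZT, hours) for the Mcm genes (stars) and the genes of 4 lists (circles), in young mice (left) and aged mice (right), filled where the adjusted p was under 0.05. The ring genes lie between ZT10.46 and ZT12.79, and most rhythmic fork components lie later, up to ZT16.53 (Clspn) in young and ZT17.34 (Clspn) in aged mice. The G2 and mitosis genes lie on both sides of ZT0.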

How the data were processed

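RNA of 48 mice, amplified from 25 ng per the labels' protocols, was read on Affymetrix arrays. The deposited log2 values were made by the authors with RMA, per the submitters' processing notes. The notes used here name no version and do not say whether the ages were normalised in 1 run. Of 45141 probe sets 28898 carried 1 gene symbol, 551 several and 15692 none in the platform annotation. The brightest such probe set on average stood for its gene (17097 genes), and the lowest 25% of genes were left out. Fits were made with limma 3.58.1 in R 4.3.3 over all 48 arrays, with Benjamini-Hochberg adjustment over 12823 genes for each contrast, and were tested on simulated data. The models were a 24 h cosine per age, 24 h and 12 h components per age, and a mean for each group; amplitudes, folds and differences were computed from these fits. Correlations between members used Python 3.11.15 with numpy 2.4.6 and scipy 1.17.1.

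The members and gene lists were chosen with earlier results of these data known. All members are named, and of each list up to 3 genes with the smallest p in the comparison described, plus the 5 genes most like the members' average and Mki67. Further genes of the partner and E2F lists were named after their values were seen, where a count was small. The replicate numbers did not pair mice: same-numbered mice of different groups had a mean correlation of residuals of -0.000737, others 0.000912. Arrays give no counts, so their number limits the precision. Alternatives were other scalings, filters, probe sets, array weights, marker covariates, a replicate block and leaving out single mice.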

Additional observations from a re-analysis of the deposited data

Results flagged for a closer look

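In 7 of 84 sets of 4 values, each of 1 gene in 1 group, the most extreme mouse lay far from the rest of its group. The gap to the nearest mouse over the group's range was then above Dixon's 95% critical value. For independent sets chance alone gives about 1 in 20, but the genes share the same mice and varied together, so these sets are not independent. For Mcm2 the flagged mice were mouse 2 of young ZT16 (7.14 against 7.58 for the nearest mouse, gap over range 0.94), mouse 3 of aged ZT0 (7.09 against 7.46, 0.838) and mouse 2 of aged ZT12 (9.04 against 8.77, 0.832). Mouse 4 of aged ZT16 was high for Mcm3 (8.86 against 8.35, 0.915). Mouse 3 of aged ZT0 was low for Mcm6 too (6.18 against 6.72, 0.951). Mouse 3 of young ZT8 was low for Mcm4 (6.95 against 7.18, 0.882), and mouse 1 of aged ZT4 for Mcm10 (4.97 against 5.64, 0.942). At ZT16 the aged mouse 4 was the highest of its group for all members, which widens the difference between the ages. The young mouse 2 was the lowest of its group for Mcm2, Mcm5 and Mcm10 but the highest for Mcm6. Without the young mouse 2, 2 members passed there, and without the aged mouse 4, 1 did, against 5 with all mice.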

How the results depend on the processing

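The counts of members that varied over the day with time as a factor (7 at each age) were kept under every alternative for which they were made. So was the fall of young mice from ZT12 to ZT16 (5, and 5 to 6 under the alternatives). No counts were made for swaps of single probe sets. With time as a factor, further probe sets of Mcm5, Mcm7 and Mcm10 missed the threshold at 1 age or both, as given above. With array weights, 10 instead of 6 age differences at single times passed, 34 instead of 18 steps, 4 instead of 0 courses that differ between the ages and 4 instead of 1 young 12 h components. With marker covariates, 3 age differences, 3 aged rhythms instead of 6 and 1 aged 12 h component instead of 0 passed. Without the 4 arrays of lowest weight, 3 young rhythms instead of 6 and 3 young 12 h components passed; with cyclic loess 2 of the latter did. With the mean of all probe sets, 1 level difference instead of 3 passed. Leaving out single mice gave 3 to 8 age differences, 3 to 6 young rhythms, 4 to 7 aged rhythms, 1 to 3 young 12 h components, 2 to 3 level differences and 15 to 27 steps. The dim second probe set of Mcm5 turned the sign at ZT16 (-0.00497, aged minus young) and from ZT20 to ZT0 in aged (0.0814) and young mice (0.120); it was below the dim limit. With a replicate block, which pairs mice by number only, 5 young rhythms and 2 level differences passed (Mcm2, adjusted p = 0.0510) and the other counts were as before. Except as stated, the causes of these changes were not tested.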
